A study of Homo sapiens with 20 samples.

Results

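The matrix metalloproteinases (MMPs) and tissue inhibitors of metalloproteinases (TIMPs) followed here are the products of the 7 genes MMP2, MMP7, MMP9, MMP14, MMP15, MMP19 and MMP24 and of the 3 genes TIMP1, TIMP2 and TIMP3, measured as RNA in HepaRG cells. They were read from every probe whose RefSeq accession belongs to one of these symbols, which gave 11 probes for the 10 genes, 2 of them for MMP19, out of 42405 probes and 19062 named genes on the array. HepaRG is a human hepatoma line whose bipotent progenitors differentiate in culture into hepatocyte-like and biliary-like cells. RNA was labelled with Cy3 and hybridised to 20 Agilent arrays, 4 in each of 5 conditions, and the 4 arrays of a condition are biological replicates per the study's methods. D4 and D15 were cells collected 4 and 15 days after seeding, in a medium with serum, insulin and hydrocortisone that all conditions shared. D30 - DMSO cells stayed in this medium until day 30. D30 + DMSO cells received 2% DMSO from day 15 to day 30. D34 +/- DMSO cells were differentiated with DMSO and then kept without it for 4 more days. No cells were kept with DMSO, or without it throughout, over these 4 days. Changes after DMSO removal therefore cannot be told apart from those of 4 more days in culture. All samples are of this single tumor line and each culture holds cells of several kinds, so fewer cells of a type and less RNA per cell cannot be told apart.

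MMPs are zinc-dependent endopeptidases that are made as inactive proenzymes and, once activated, cleave collagens, laminins, fibronectin and other proteins at the cell surface. TIMPs bind the active site of MMPs and block it, and in the liver the balance between both families is known to set the turnover of the matrix during regeneration and fibrosis. MMP2 and MMP9 are the gelatinases, MMP7 (matrilysin) is a small secreted enzyme of epithelial cells, MMP14, MMP15 and MMP24 are anchored in the membrane, and MMP19 is a secreted enzyme that cleaves basement membrane components. TIMP1 and TIMP2 are soluble, TIMP2 also takes part with MMP14 in the activation of pro-MMP2, and TIMP3 is bound to the matrix and also inhibits several ADAM and ADAMTS proteases.

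RefSeq (build GRCh38.p14) gave a promoter sequence for 6 of the 10 genes: MMP7, MMP14, MMP15, MMP24, TIMP1 and TIMP3. The 250 bases before the start are printed for MMP7, called lower with DMSO in the comparisons below, for MMP24, called over the 5 conditions, and for TIMP1 as the inhibitor that also holds an ETS motif. They are written 5′ to 3′ in lower case, and capitals mark matches on either strand to AP-1 (TGANTCA), PEA3/ETS (AGGAAG), the GC box (GGGCGG) and the TATA box (TATAAA).
MMP7, chr11:102530748-102530997, minus strand: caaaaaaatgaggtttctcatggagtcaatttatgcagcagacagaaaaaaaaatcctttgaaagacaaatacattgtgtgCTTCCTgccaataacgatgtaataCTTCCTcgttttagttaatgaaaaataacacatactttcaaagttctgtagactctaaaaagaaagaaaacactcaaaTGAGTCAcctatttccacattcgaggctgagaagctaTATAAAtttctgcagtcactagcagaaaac
MMP24, chr20:35226440-35226689, plus strand: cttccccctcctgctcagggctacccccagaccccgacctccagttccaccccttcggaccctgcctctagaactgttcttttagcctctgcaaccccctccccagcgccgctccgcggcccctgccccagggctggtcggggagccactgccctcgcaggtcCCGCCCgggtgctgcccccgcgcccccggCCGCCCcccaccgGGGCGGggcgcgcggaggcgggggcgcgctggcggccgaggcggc
TIMP1, chrX:47582186-47582435, plus strand: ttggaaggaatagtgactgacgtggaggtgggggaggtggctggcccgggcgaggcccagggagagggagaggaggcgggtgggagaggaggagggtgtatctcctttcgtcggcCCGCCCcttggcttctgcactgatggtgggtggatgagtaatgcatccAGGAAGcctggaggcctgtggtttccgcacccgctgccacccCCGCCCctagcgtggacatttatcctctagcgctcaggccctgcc
MMP7 was the only one of the 6 windows with an AP-1 match, 67 bases before the start, and with a TATA match, 30 bases before it, and it held 2 ETS matches and no GC box. The other 5 windows each held at least 1 GC box, and TIMP1 held 1 ETS match. Matches of different motifs did not overlap. Of the 35116 promoters in the same table, 6.57% held an AP-1 match in this window, 28.7% an ETS match, 42.6% a GC box and 10.7% a TATA match. The share of G and C was 33.6% for MMP7, 77.6% for MMP24 and 64.8% for TIMP1. These are matches of letters only, and binding at them was not measured here.

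Array values are given as scaled signal, the processed signal of Feature Extraction brought to a common 75th percentile, in the order of replicates 1 to 4. Log2 values are relative to that percentile. Probes differ in brightness, so a probe's signal is compared between conditions and not with another probe's. Between 56.9% and 71.2% of the probes of an array were well above background, and replicate arrays correlated across probes with r from 0.955 to 0.992. limma was run on the 26531 probes that some condition showed above background throughout its 4 arrays, all 11 member probes included, and a probe was called between conditions where it changed over 2-fold with a p, adjusted over these probes by Benjamini-Hochberg, under 0.005. The arrays lie on 4 slides, and slide 4, scanned apart from the rest, carries replicate 4 of every condition and replicate 3 of D15 and D30 + DMSO. In each of the 5 conditions the highest array for TIMP1, MMP14 and MMP15 and the lowest for MMP9 lay on slide 4. Slide 4 and its scan session cannot be told apart, and values with the slide as a block, or within a slide, are given for part of the changes.

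**Figure D1:**
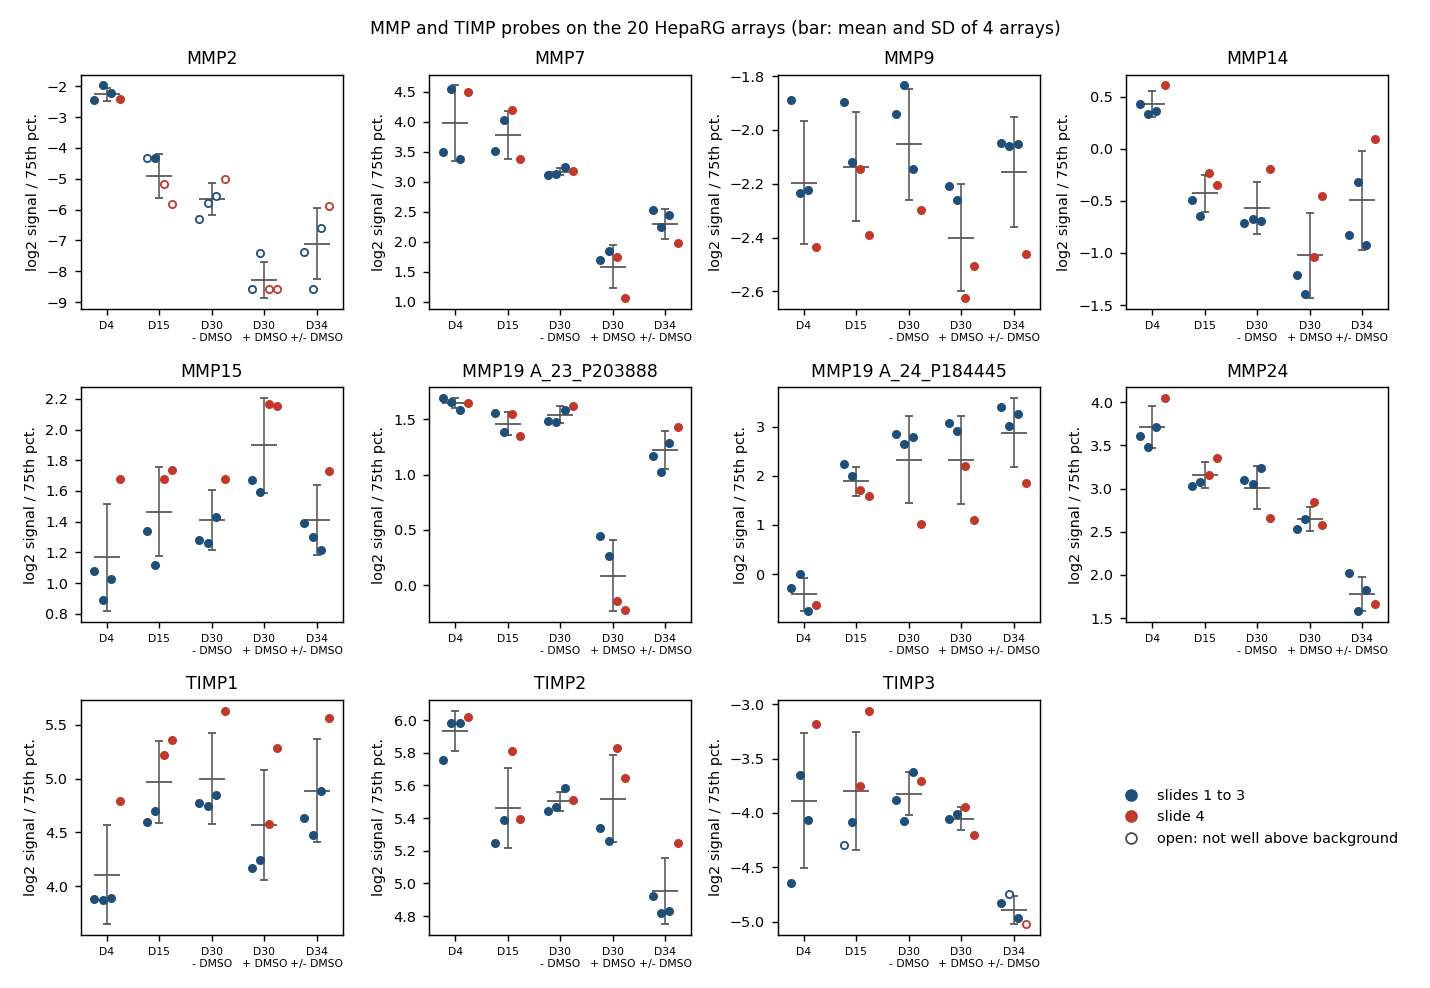
Log2 signal of the 11 MMP and TIMP probes relative to the 75th percentile of the array (vertical axis, one scale per panel) on the 20 arrays, by condition. Points are arrays, red for slide 4 and open where the probe was not well above background, and bars are the mean and SD of 4 arrays. MMP24 lies at 1.78 ± 0.19 at D34 +/- DMSO, and the MMP19 probes differ in shape.

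From D4 to D15, the step in which progenitors turn into differentiating cells, MMP2 fell and 1 of the MMP19 probes rose, while the other 9 probes were not called. Among all tested probes 5.5% were called higher and 3.78% lower at this step. With DMSO, MMP7, MMP2 and the other MMP19 probe were called lower and no member was called higher, both against D30 - DMSO, where 4.17% of all probes were called lower and 1.67% higher, and against D15, where the shares were 4.28% and 2.17%. The MMP2 call rests on signals near or under background, as given below. After 4 days without DMSO, the MMP19 probe that had fallen was the 1 member called higher between D30 + DMSO and D34 +/- DMSO (of all probes, 5.07% higher and 1.91% lower). Set against D30 - DMSO, the cells after DMSO removal differed in MMP24, the 1 member called lower, where 0.17% of all probes were lower and 1.29% higher. Between D15 and D30 - DMSO limma called 0 of the 11 probes, with 0.00377% of all probes called higher and 0% lower, 1 member (MMP7) at an unadjusted p below 0.05, and 0 members by the methods' t-test.

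The median log2 change of the 11 probes was -0.36 with DMSO addition and 0.32 after its removal, against 0.03 and -0.04 over all tested probes. These comparisons share the D30 + DMSO arrays, and that for removal also spans the days of culture. An F-test by limma asked for any difference among the 5 conditions, with over 3-fold from the lowest condition mean to the highest and Bonferroni's p under 0.001, and called MMP2 (adjusted p = 4.66e-05) and MMP24 (adjusted p = 0.000116), in a background of 4.98% of all probes. MMP2 entered the tested probes only through D4, where its mean was highest. The MMP24 call was lost without D34 +/- DMSO replicate 2 (adjusted p = 0.00124) or replicate 4 (0.00123), and neither gene passed without the arrays of slide 4 (adjusted p = 0.0116 for MMP2 and 0.0143 for MMP24). With the slide as a block neither passed either, at adjusted p = 0.00139 and 0.00121. MMP19 probe A_23_P203888 had adjusted p = 0.000177 but a range of 2.96-fold, just under the threshold, and it passed without D30 + DMSO replicate 1.

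**Figure D2:**
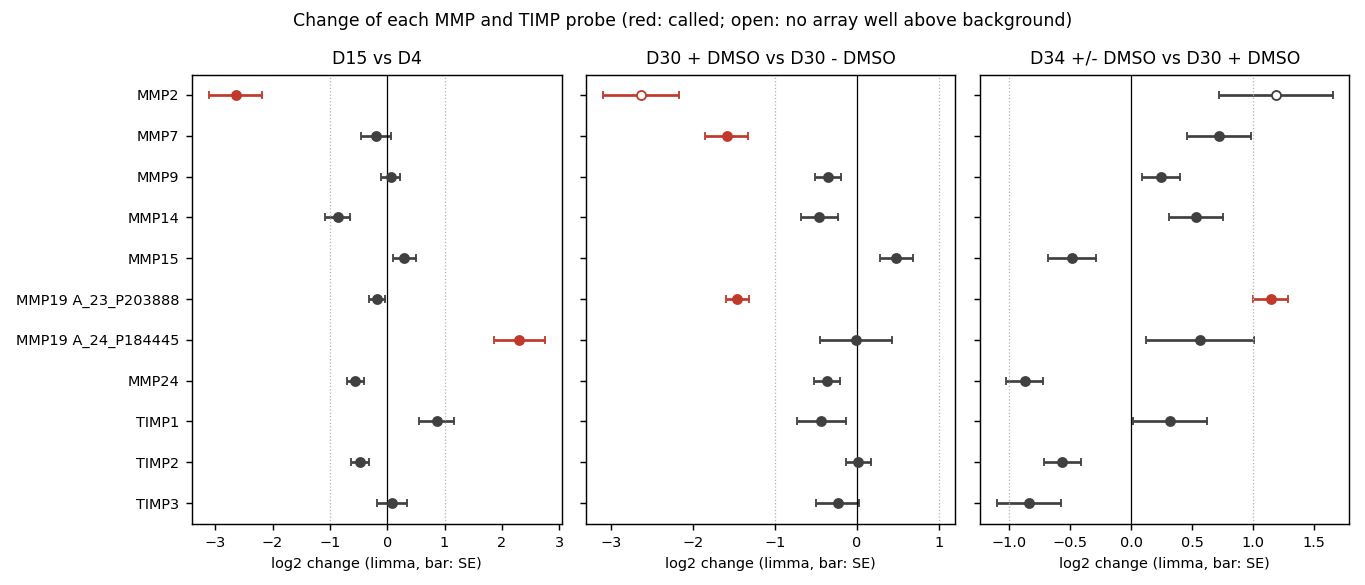
Fitted log2 change of each probe (horizontal axis, bars are limma's SE) for D15 against D4, DMSO addition and DMSO removal. Red marks called probes, open points have no array of either condition well above background, and dotted lines mark 2-fold. MMP7 and MMP19 probe A_23_P203888 lie at -1.59 and -1.46 for addition and at 0.72 and 1.14 for removal.

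MMP2 (gelatinase A, probe A_33_P3237135, NM_004530) was well above background on all 4 arrays of the D4 progenitors and on a single later array. Its scaled signals were 70.9, 98.3, 82.0 and 72.0 at D4, all well above background, and 19.1, 19.2, 10.7 and 6.85 at D15, where replicate 2 alone was above it. The 4 arrays of D4 lay above those of D15, and MMP2 fell 6.25-fold at this step (log2 change -2.64, SE 0.46, adjusted p = 0.00028). MMP2 passed the filter for testing only through D4, where it was high. This call and that of the F-test are therefore not independent of the filter. The fold rests on D15 values of which 1 was well above background. Without the arrays of slide 4 the change was -2.11 (adjusted p = 0.00927) and was no longer called. With normexp background correction it was -0.76, under 2-fold (adjusted p = 0.000324), and the methods' t-test gave an adjusted p of 0.00668, so neither called it. None of the other 12 arrays was well above background, with 4.90, 6.95, 8.18 and 11.9 at D30 - DMSO, 1.00, 2.24, 1.00 and 1.00 at D30 + DMSO and 2.32, 1.00, 4.00 and 6.48 at D34 +/- DMSO. Of these 12 values, 4 sit at the floor of 1 that was set here.

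The calls of MMP2 for DMSO compare such values. Against D30 - DMSO the fitted log2 change was -2.63 (SE 0.46, adjusted p = 0.000474), but with a floor of 10 it was -0.06 (adjusted p = 0.889) and with normexp background correction 0.06 (adjusted p = 0.861), so no fold is given for this pair. Against D15, which has 1 array above background, MMP2 was called lower at D30 + DMSO (adjusted p = 3.34e-05). The other D15 arrays were not well above background, so no fold is given for this pair either. This call was lost with the floor of 10 too (adjusted p = 0.0695). The probes of other genes most like MMP2 over the 20 arrays were ARNT2 (r = 0.965), a transcription factor, TSPAN10 (r = 0.962), a tetraspanin, and IGFBP7 (r = 0.960), a secreted binding protein of insulin-like growth factors, where 15 of the 20 MMP2 values were not well above background.

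MMP9 (gelatinase B, probe A_23_P40174, NM_004994, 10 spots per array) was well above background on all 20 arrays and varied little. Its signals were 104, 81.5, 82.1 and 70.8 at D4, 103, 88.4, 86.7 and 73.2 at D15 and 100, 108, 86.7 and 78.1 at D30 - DMSO. They were 82.9, 80.0, 62.2 and 67.6 at D30 + DMSO and 92.6, 91.9, 92.4 and 69.7 at D34 +/- DMSO. The 5 conditions overlapped, the highest and lowest condition mean were 1.27-fold apart, and no pair was called. For DMSO addition the log2 change was -0.35 (SE 0.16, adjusted p = 0.153), and -0.30 within slide 3 and -0.27 within slide 4.

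MMP7 (matrilysin, probe A_23_P52761, NM_002423) was lower on every array with DMSO than on any other array. Its signals were 4335, 8975, 3981 and 8669.9 at D4, 4356, 6278, 7006 and 3991 at D15 and 3332, 3338, 3635 and 3488 at D30 - DMSO. At D30 + DMSO they were 1234, 1369.9, 1288 and 798, and after DMSO removal they were 2221, 1821, 2089 and 1505. D4 and D15 overlapped, with 2 arrays of D4 (replicates 2 and 4) far above the other 2, while the arrays of D30 - DMSO lay close together and apart from those of both DMSO-exposed conditions. MMP7 fell 3.00-fold with DMSO against D30 - DMSO (log2 change -1.59, SE 0.26, adjusted p = 0.000249). Against D15 it was 4.58-fold lower at D30 + DMSO (log2 change -2.20, SE 0.26, adjusted p = 7.7e-06, but 0.00536 and no call by the methods' t-test). That comparison also spans the days of culture. From D15 to D30 - DMSO, MMP7 had a log2 change of -0.61 (SE 0.26), 1.53-fold lower, with no call but no overlap of arrays. The change for addition was -1.36 within slide 3 and -1.78 within slide 4.

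Without the arrays of slide 4, which leaves 2 arrays of D30 + DMSO, the change of MMP7 for addition was -1.40 (adjusted p = 0.0096) and was not called. The D34 +/- DMSO signals all lay above those of D30 + DMSO and below those of D30 - DMSO. The first difference was 1.64-fold (log2 change 0.72, SE 0.26, adjusted p = 0.0595) and the second had a log2 change of -0.87 (SE 0.26, adjusted p = 0.0718), neither called. In order, the condition means were D4 (3.98 ± 0.63 on the log2 scale, SD, n = 4), D15 (3.78 ± 0.40), D30 - DMSO (3.17 ± 0.06), D34 +/- DMSO (2.30 ± 0.25) and D30 + DMSO (1.58 ± 0.36), with only D4 and D15 overlapping among neighbours.

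Of the membrane-type enzymes, MMP24 (MT5-MMP, probe A_33_P3398331, NM_006690) had its highest arrays at D4 and its lowest after DMSO removal. Its signals were 4679, 4284, 5023 and 6344 at D4, 3127, 3242, 3433 and 3933 at D15 and 3278, 3184, 3616 and 2427 at D30 - DMSO. They were 2218, 2395, 2751 and 2293 at D30 + DMSO and 1560.2, 1152, 1363 and 1214 at D34 +/- DMSO. Every D4 array lay above every D15 array, D15 and D30 - DMSO overlapped, D30 - DMSO overlapped with D30 + DMSO through its replicate 4, and the 4 arrays after removal were the lowest of all. MMP24 fell 2.36-fold between D30 - DMSO and D34 +/- DMSO (log2 change -1.24, SE 0.15, adjusted p = 4.3e-05), with changes within slides 1, 3 and 4 of -1.65, -1.17 and -1.0. That call was lost when the fit held the 8 arrays of these conditions alone (adjusted p = 0.00673) and with the methods' t-test (adjusted p = 0.023).

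Between D30 + DMSO and D34 +/- DMSO the change of MMP24 had a small adjusted p but stayed under 2-fold (log2 change -0.87, SE 0.15, adjusted p = 0.00036, 1.83-fold), and for D15 against D4 it had a log2 change of -0.56 (SE 0.15, adjusted p = 0.0118). For DMSO addition the values were -0.36 (SE 0.15, adjusted p = 0.119), and the change was -0.51 within slide 3 and 0.05 within slide 4. MMP24 was not called in the other 5 comparisons, with 3.83-fold between its highest and lowest condition mean. The probes of other genes most like it over the 20 arrays were FHOD3 (r = 0.924), a formin that organises actin, TBC1D9 (r = 0.919) and PRKCH (r = 0.915), a protein kinase C.

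MMP14 (MT1-MMP, probe A_24_P82106, NM_004995), which with TIMP2 activates pro-MMP2, had signals of 518, 483, 494 and 587 at D4 and 273, 246, 326 and 302 at D15. Every D4 array was above every D15 array. The change was not called (log2 change -0.86, SE 0.22, adjusted p = 0.00712, 1.82-fold lower at D15), and with the slide as a block it was -0.95 (SE 0.15, adjusted p = 0.000108), still under 2-fold. The later signals were 234, 240.0, 237 and 336 at D30 - DMSO, 166, 146, 187 and 281 at D30 + DMSO and 216, 307, 203 and 411 at D34 +/- DMSO. These 3 conditions overlapped, and in each the array of replicate 4 was the highest. For addition, the log2 change was -0.46 (adjusted p = 0.183) without and -0.49 (adjusted p = 0.0245) with the slide as a block. For removal, the log2 change was 0.53 (adjusted p = 0.101) without and 0.62 (adjusted p = 0.00442) with the slide as a block.

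MMP15 (MT2-MMP, probe A_24_P116535, NM_002428) had its highest mean with DMSO. Its signals were 809, 712, 781 and 1228 at D4, 970.2, 831, 1225 and 1276 at D15 and 930.3, 918, 1033 and 1229 at D30 - DMSO. They were 1219, 1159, 1725 and 1709 at D30 + DMSO and 1009, 945, 890.4 and 1275 at D34 +/- DMSO. D30 + DMSO overlapped with the other conditions when all slides were pooled, but on slides 1 to 3 the 2 arrays with DMSO were above every array of the other conditions, and on slide 4 the same was seen. No pair was called, with a log2 change of 0.49 (SE 0.20, adjusted p = 0.106) for addition and -0.49 (SE 0.20, adjusted p = 0.0943) for removal. With the slide as a block these were 0.38 (adjusted p = 0.0103) and -0.36 (adjusted p = 0.00986), both under 2-fold.

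The 2 probes of MMP19 are assigned to the same transcript (NM_002429) and gave different accounts of the gene. Probe A_23_P203888 (1 spot per array) had signals of 1241, 1209, 1154 and 1204 at D4, 1133, 1006, 1119.6 and 979.8 at D15 and 1074, 1069, 1154 and 1182 at D30 - DMSO. It had 522, 459, 347 and 329 at D30 + DMSO and 862, 779, 934 and 1033 at D34 +/- DMSO. The 4 arrays with DMSO were the lowest of the 20, and those after removal lay between them and the arrays of D30 - DMSO. By this probe MMP19 fell 2.75-fold with DMSO (log2 change -1.46, SE 0.14, adjusted p = 7.38e-07) and rose 2.21-fold after its removal (log2 change 1.14, SE 0.14, adjusted p = 8.63e-06), where its mean was 1.25-fold under that of D30 - DMSO with no call (adjusted p = 0.284). Within slide 3 and slide 4, the change for addition was -1.13 and -1.81. The rise lost its call without the arrays of slide 4, where it was 0.81, under 2-fold (adjusted p = 0.00173), with normexp background correction, where it was 0.99, and with the methods' t-test (adjusted p = 0.0129). The same test did not call the fall against D15 (log2 change -1.38, adjusted p = 0.00554). The rise also spans the days of culture after DMSO was removed.

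Probe A_24_P184445 (2 spots per array) instead had its lowest signals at D4, with 315, 382, 228 and 248. It had 1828, 1526, 1266 and 1151 at D15, 2795, 2426, 2642 and 777 at D30 - DMSO, 3224, 2900.3, 1757 and 821 at D30 + DMSO and 4060.4, 3104, 3676 and 1389.7 at D34 +/- DMSO. The D4 arrays lay under all others, and the later conditions overlapped. By this probe MMP19 rose 4.94-fold from D4 to D15 (log2 change 2.31, SE 0.44, adjusted p = 0.000647), a step at which the other probe had a log2 change of -0.18 (SE 0.14, adjusted p = 0.413). For DMSO addition the change was -0.01 (SE 0.44, adjusted p = 0.993). Slide 4 held the lowest array in each condition but D4, most clearly for replicate 4 of D30 - DMSO, at 777 against at least 2426 on the other 3 arrays. Within slides 3 and 4, the change for addition was 0.13 and 0.63. The probe sequences were not used here, so which part or isoform of the transcript each probe reads is not known, and no single direction is given for MMP19.

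**Figure D3:**
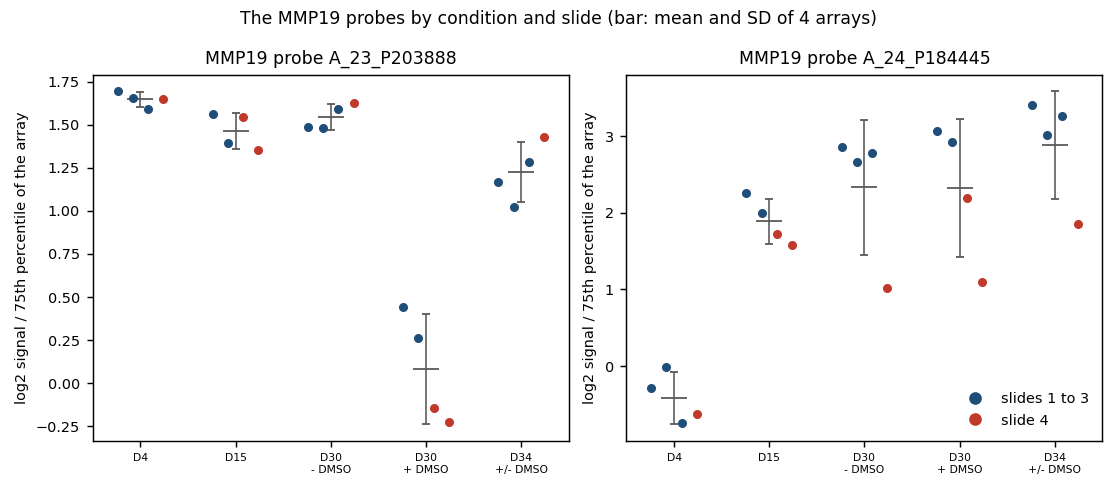
Log2 signal relative to the 75th percentile of the array (vertical axis) of the MMP19 probes by condition, with points for arrays, red for slide 4, and bars for mean and SD of 4 arrays. The left probe drops to 0.08 ± 0.32 at D30 + DMSO, while the right probe is lowest at D4 (-0.42 ± 0.34) and lower on most slide 4 arrays.

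No TIMP was called in any of the 6 comparisons by limma at these thresholds. TIMP1 (probe A_23_P62115, NM_003254) had signals of 5649, 5606, 5679.9 and 10653 at D4, 9273, 9973, 14299 and 15725 at D15 and 10517, 10283, 11033 and 18982 at D30 - DMSO. They were 6892, 7261, 9169 and 14961 at D30 + DMSO and 9532, 8512, 11353 and 18117 at D34 +/- DMSO. In every condition the slide 4 arrays of replicate 4 were the highest, and the D4 arrays of replicates 1 to 3 lay under all others. The change for addition was -0.43 (SE 0.30, adjusted p = 0.397), but -0.67 (SE 0.14, adjusted p = 0.00218) with the slide as a block, and -0.57 and -0.70 within slides 3 and 4. For removal it was 0.32 (adjusted p = 0.548) and, with the block, 0.54 (adjusted p = 0.00662). From D4 to D15 it was 0.86 (adjusted p = 0.0464) and 0.64 (adjusted p = 0.00164). All were under 2-fold.

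TIMP2 (probe A_33_P3382177, NM_003255) had signals of 20719.9, 24227, 24275 and 24911 at D4, 14598, 16096, 21532 and 16126 at D15 and 16720.4, 16982, 18398 and 17475 at D30 - DMSO. They were 15546, 14666, 21829 and 19215 at D30 + DMSO and 11629.5, 10809, 10897 and 14588 at D34 +/- DMSO. D15, D30 - DMSO and D30 + DMSO overlapped, and the arrays after DMSO removal lay under those of both D30 conditions. The change for addition was 0.02 (SE 0.15, adjusted p = 0.966) and that for removal -0.56 (SE 0.15, adjusted p = 0.0109), 1.48-fold lower. Within slide 3 the change for addition was -0.15 and within slide 4 it was 0.23. With the slide as a block, the adjusted p for removal was 0.00373, still under 2-fold.

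TIMP3 (probe A_23_P399078, NM_000362) was near the background, well above it on 17 of the 20 arrays. Its signals were 15.3, 30.5, 23.0 and 42.2 at D4, 19.5, 22.6, 28.5 and 45.9 at D15 and 26.0, 22.8, 31.0 and 29.5 at D30 - DMSO. They were 23.1, 23.8, 24.9 and 20.8 at D30 + DMSO and 13.5, 14.3, 12.2 and 11.8 at D34 +/- DMSO. The 4 arrays after removal were the lowest, with 2 of them not well above background. Against D30 - DMSO the log2 change was -1.07 (SE 0.26, adjusted p = 0.0217), which was called with the slide as a block (-1.20, adjusted p = 0.00103), and against D30 + DMSO it was -0.84 (adjusted p = 0.0277). With normexp background correction the values were -0.26 (adjusted p = 0.528) and -0.26 (adjusted p = 0.3).

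The signal of a TIMP relative to that of an MMP on the same array was compared to ask whether inhibitors and enzymes moved apart. Of 24 ratios (3 TIMPs to 8 MMP probes) per comparison, 10 had an exact permutation p (two-sided, 4 arrays against 4) below 0.05 for DMSO addition and 8 for removal, and 0 had an adjusted p below 0.05. Such a p means that the arrays of the conditions did not overlap. The ratios share probes and are not separate results, the 10 being ratios to MMP2, MMP7, MMP15 and MMP19 probe A_23_P203888. How often ratios of other probes reach this was not counted. The smallest p that such a test can give is 0.0286, and the smallest adjusted values were 0.0686 and 0.0857. An adjusted p below 0.05 would need more ratios at this smallest p than the 10 and 8 found, so the 0 carries little weight. The 3 ratios to MMP2 are among the 10 and rest on signals that were not well above background on any array, and no value is given for them.

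With DMSO, the ratios to MMP7 and to MMP19 probe A_23_P203888 had positive log2 changes for all 3 inhibitors. Those to the other MMP19 probe, A_24_P184445, had log2 changes of -0.42, 0.03 and -0.22 for TIMP1, TIMP2 and TIMP3 (exact p = 0.571, 0.971 and 0.714). TIMP3 to MMP7 had a log2 change of 1.35 (SD 0.26 and 0.15, exact p = 0.0286, adjusted 0.0686), or 2.56-fold. TIMP2 to that MMP19 probe had a log2 change of 1.48 (SD 0.57 and 0.05, exact p = 0.0286, adjusted 0.0686), or 2.78-fold. TIMP1 to MMP15 had the opposite sign, -0.92 (SD 0.32 and 0.24, exact p = 0.0286, adjusted 0.0686), or 0.530-fold. TIMP2 to MMP14, the pair of pro-MMP2 activation, had 0.47 (SD 0.32 and 0.25, exact p = 0.114, adjusted 0.196).

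After DMSO removal the ratios to MMP7 and to MMP19 probe A_23_P203888, TIMP1 to MMP15 and TIMP2 to MMP14 had log2 changes of the opposite sign. Those to MMP19 probe A_24_P184445 had -0.24, -1.13 and -1.40 for TIMP1, TIMP2 and TIMP3 (exact p = 0.743, 0.171 and 0.0857). TIMP2 to MMP7 had a log2 change of -1.28 (SD 0.42 and 0.51, exact p = 0.0286, adjusted 0.0857), or 0.411-fold, and TIMP3 to MMP7 one of -1.56 (SD 0.23 and 0.26, exact p = 0.0286, adjusted 0.0857), in which 2 of the 4 TIMP3 values at D34 +/- DMSO were not well above background. TIMP2 to MMP19 probe A_23_P203888 had a log2 change of -1.71 (SD 0.13 and 0.57, exact p = 0.0286, adjusted 0.0857), or 0.306-fold. TIMP1 to MMP15 had a log2 change of 0.81 (SD 0.32 and 0.32, exact p = 0.0286, adjusted 0.0857), or 1.75-fold. TIMP2 to MMP14 had a log2 change of -1.10 (SD 0.35 and 0.32, exact p = 0.0286, adjusted 0.0857). In the same comparison MMP24 and TIMP3 had lower means side by side, so their ratio had a log2 change of 0.03 (exact p = 0.886). Both comparisons share the D30 + DMSO arrays, so the opposite signs are not independent of each other. The comparison for removal also spans the days of culture. None of these ratios passed the adjusted threshold.

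**Figure D4:**
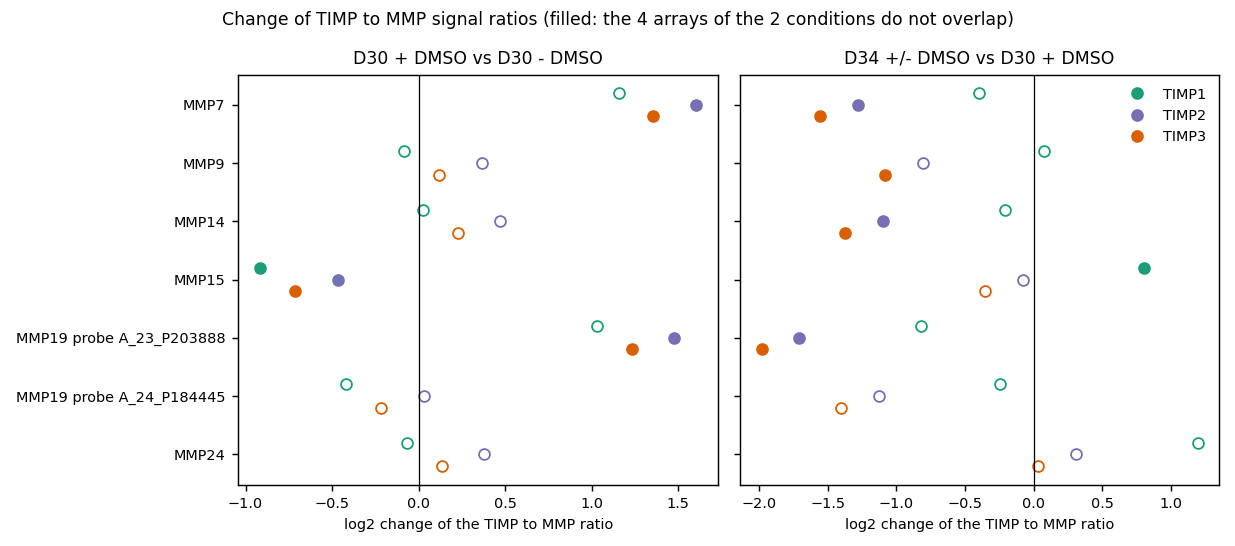
Log2 change of the ratio of each TIMP (color) to each MMP probe (vertical axis, MMP2 left out) for DMSO addition and DMSO removal, as the difference of condition means of 4 arrays. Filled points are ratios whose 4 arrays per condition do not overlap. TIMP2 to MMP7 lies at 1.60 for addition and -1.28 for removal.

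The rest of the protease network was counted in gene lists. Of the other MMPs and TIMP4, 16 of 17 genes were on the array and 6 of them, with 7 probes, were tested: MMP3, MMP10, MMP17, MMP23B, MMP25 and MMP28. MMP10 (stromelysin-2) rose 4.06-fold from D4 to D15 (log2 change 2.02, SE 0.41, adjusted p = 0.00109), with 1 array of D4 and 2 of D15 well above background. In the other comparisons limma called 0 of the 7 probes, with 1 or 2 at an unadjusted p below 0.05. MMP1, MMP12, MMP26, MMP27 and TIMP4 were well above background on no array of any condition.

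In the plasminogen activator system, whose protease plasmin activates several pro-MMPs, 6 of 8 genes were tested, with 1 probe each. From D4 to D15, 2 rose and 2 fell. PLG, the plasminogen gene made by hepatocytes, was at least 28.6-fold higher at D15 (adjusted p = 9.47e-07). SERPINF2, the plasmin inhibitor, rose 19.7-fold (log2 change 4.30, SE 0.32, adjusted p = 1.46e-08). PLAUR, the urokinase receptor, fell 4.89-fold. PLAUR was also the 1 probe called for addition, 4.49-fold lower with DMSO, where 1 of 4 arrays was well above background (log2 change -2.17, SE 0.32, adjusted p = 8.32e-05), and for removal, 5.20-fold higher (log2 change 2.38, SE 0.32, adjusted p = 2.39e-05). Against D15, PLG (26.4-fold) and SERPINF2 (3.07-fold) were higher at D30 + DMSO and PLAUR was lower, a comparison that also spans the days of culture. At D30 - DMSO, PLG was 5.78-fold and SERPINF2 1.62-fold above D15, neither called. Against D30 - DMSO, PLG was 4.56-fold (adjusted p = 0.0161) and SERPINF2 1.89-fold (adjusted p = 0.0574) higher with DMSO, neither called.

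Among activators and further inhibitors of MMPs, 17 probes of 12 genes were tested, and 3 rose and 3 fell from D4 to D15. A2M, the plasma protease inhibitor alpha-2-macroglobulin, rose 8.54-fold (log2 change 3.10, SE 0.32, adjusted p = 6.97e-07), while RECK, a membrane-anchored MMP inhibitor, fell 2.90-fold by 1 of its 2 probes (log2 change -1.54, SE 0.17, adjusted p = 3.05e-06), the other having -0.69 (SE 0.19, adjusted p = 0.012) with no call. With DMSO 2 probes fell. A2M fell 4.63-fold (log2 change -2.21, SE 0.32, adjusted p = 6.87e-05), and PCOLCE, an enhancer of procollagen processing, fell 6.73-fold (log2 change -2.75, SE 0.31, adjusted p = 4.29e-06). The same 2 genes rose after removal, A2M 3.32-fold and PCOLCE 4.95-fold. The median log2 change of this list was -0.14 for addition, against 0.03 over all tested probes.

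The ADAM and ADAMTS proteases, relatives of the MMPs and partly targets of TIMP3, had 26 tested probes of 17 genes, of which 1 rose and 7 fell from D4 to D15, with a median of -0.67 against 0.01 over all tested probes. The aggrecanase ADAMTS4 was at least 3.35-fold higher at D15, and ADAM12 fell 7.03-fold and 8.85-fold by 2 of its 3 probes, the other having a log2 change of -0.60 (adjusted p = 0.0761). With DMSO, ADAMTS9 fell 5.01-fold (log2 change -2.32, SE 0.36, adjusted p = 0.000128) and ADAMTS10 6.17-fold (log2 change -2.63, SE 0.34, adjusted p = 2.03e-05). Both rose after removal, ADAMTS9 3.58-fold and ADAMTS10 5.14-fold, together with 1 of the 3 probes of ADAM12.

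AP-1 and ETS factors, known to drive MMP promoters, had 12 tested probes of 9 genes, of which 3 rose (3 of the 4 probes of ETV1) and 2 fell (FOSL1 and FOSL2) from D4 to D15. With DMSO 4 probes fell and none was called higher, with a median log2 change of -0.80 over the 12 probes, of which ETV1 holds 4. JUN and JUND went the other way without a call, at log2 changes of 0.71 (adjusted p = 0.0121) and 1.04 (adjusted p = 0.0364). FOSL1, an AP-1 subunit, fell 2.77-fold (log2 change -1.47, SE 0.22, adjusted p = 0.000109), ETS2 2.18-fold (log2 change -1.13, SE 0.18, adjusted p = 0.000183), and ETV1 2.60-fold and 2.13-fold by 2 of its 4 probes. The other 2 ETV1 probes were not called, at log2 changes of -0.95 (adjusted p = 0.000132) and 0.08 (adjusted p = 0.903). After removal FOSL1 rose 3.41-fold and ETS2 2.75-fold, while JUN, the common AP-1 partner, fell 2.52-fold (log2 change -1.34, SE 0.19, adjusted p = 4.08e-05). Whether these factors act on the MMP genes was not tested.

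Markers of cell types moved in the same comparisons. All 14 hepatocyte probes (13 genes) rose from D4 to D15, with a median log2 change of 4.62, and from D15 on all 13 genes were well above background on every array, against 10 of 13 at D4. With DMSO, CYP3A4, a drug-metabolising enzyme, rose 16.7-fold, and it was the 1 hepatocyte probe that fell after removal (90.2-fold). Of 11 tested mesenchymal and stellate probes (9 of 13 genes), 5 fell from D4 to D15, 4 fell with DMSO and 4 rose after removal. Their summed signal was 15806 to 23717 at D4, 6740.3 to 9869 at D15, 6128 to 12023 at D30 - DMSO, 2225 to 2831 at D30 + DMSO and 6318 to 12682 at D34 +/- DMSO, with COL1A2 and PDGFRB above background on no array. Such a sum weighs bright probes most, here 1 probe of DCN with mean log2 values of 3.40 at D30 - DMSO and 0.42 at D30 + DMSO. The probes that fell with DMSO were those of LUM, DCN and CNN1. LUM, a small proteoglycan, fell 6.43-fold, and DCN, a further one, 7.91-fold and 7.98-fold by 2 probes. CNN1, a smooth muscle protein, was well above background on 2 arrays at D30 - DMSO and 0 at D30 + DMSO, so no fold is given. 

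Of 8 tested biliary and progenitor probes, 1 rose with DMSO, that of SOX9, a transcription factor of biliary cells (2.46-fold), and 1 fell, that of SPP1, the matrix protein osteopontin (3.45-fold). Both turned after removal, SOX9 being 4.19-fold lower and SPP1 4.74-fold higher, and EPCAM and CFTR were above background on no array. The summed signal of this list was 91011 to 93832 at D30 - DMSO, 67628 to 99678 at D30 + DMSO and 73454 to 109718 at D34 +/- DMSO. Of 12 tested proliferation probes, 11 fell from D4 to D15 and none was called with DMSO. All 12 rose between D30 + DMSO and D34 +/- DMSO and 9 between D30 - DMSO and D34 +/- DMSO, the comparison that called MMP24. Their summed signal was 1062 to 1881 at D30 - DMSO, 669 to 1473 at D30 + DMSO and 5912 to 15856 at D34 +/- DMSO.

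Leukocyte and endothelial genes were also looked up. Of 5 tested leukocyte and macrophage probes, 2 rose from D4 to D15 (CD68, and CD163 with no array above background), 0 were called by limma for addition (3 at an unadjusted p below 0.05) and 1 rose after removal (MARCO). CSF1R was above background on no array, and the summed signal was 4544 to 5605 at D30 - DMSO and 3301 to 3991 at D30 + DMSO. Of 3 tested endothelial probes, that of TEK, an angiopoietin receptor, was called lower with DMSO and at least 4.60-fold higher after its removal. TEK was well above background on 3 arrays at D30 - DMSO and 0 at D30 + DMSO, so no fold is given for addition. It passed the filter for testing only through D34 +/- DMSO, where it was high. Its call for removal is therefore not independent of the filter. The other 2 were not called and had the opposite signs, KDR with log2 changes of 0.42 (adjusted p = 0.629) and -1.25 (adjusted p = 0.0532) and CDH5 with 0.33 (adjusted p = 0.202) and -0.19 (adjusted p = 0.503), so that the median of the list was 0.33 for addition and -0.19 for removal. The summed signal of the list was 387 to 777 at D30 - DMSO, 421 to 879.9 at D30 + DMSO and 322 to 482 at D34 +/- DMSO. The part of the cells or states that these 6 marker lists stand for in the changes of MMP7, MMP19, MMP24 and the TIMPs was not tested.

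Across the 20 arrays, which share the conditions and slides, the members' log2 values correlated to different degrees, given as a description. The r of MMP24 and TIMP2 was 0.831 and that of MMP7 and MMP19 probe A_23_P203888 was 0.813. MMP14 and MMP19 probe A_24_P184445 had r = -0.867, and the 2 MMP19 probes had r = -0.319 with each other.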

How the data were processed

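Gene expression was measured on 20 one-color Agilent arrays of HepaRG cells, 4 per condition, grouped by the labels. The authors extracted the signals with Feature Extraction (10.7.3.1 per the labels, 10.7.1.1 per the file headers). The deposited scanner files hold intensity per spot, of which the processed signal is background-subtracted and not scaled between arrays. A log2 matrix that the authors made, centred per probe, served as an alternative. Its differences between arrays matched the scanner values scaled here (median absolute difference 3.07e-07 over 21535 probes), while the baseline of its centring is not stated.

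Control spots and spots with outlier flags were left out (6 member spots, with no member value lost), spots of a probe were averaged, arrays were scaled to their 75th percentile, a floor of 1 was set and log2 taken. Probes that were above background throughout the 4 arrays of some condition were tested with limma 3.58.1 (R 4.3.3) on all 20 arrays, at the thresholds given in the report. Where no array of a condition was above background, at most a bound on the fold is given. The bound raises that condition to the lowest signal called well above background. It compares this with the mean of all 4 arrays of the other condition, above background or not. Ratios were tested with two-sided exact permutation tests. On simulated data with 200 of 26531 probes changed 4-fold at D30 + DMSO, 84.5% were recovered for DMSO addition, 88% for removal and 56.5% by the F-test, with 0 unchanged probes called. The simulated noise was independent between arrays and held no slide effect. In the real data, deviations of arrays of different conditions had a median r of 0.374 on the same slide and -0.172 on other slides. The simulation therefore cannot show whether a slide leads to false calls. With 4 arrays per condition, their number limits the precision.

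Same-numbered arrays deviated together in every pair only for D30 + DMSO against D15 (lowest r of 4 pairs 0.365). In the other comparisons the lowest r was between -0.32 and 0.0558, so the numbers were not taken to pair the arrays. Genes were named through RefSeq accessions. Named genes are every member probe, at most 4 called probes per list and comparison, and the 3 probes most like each member that the F-test called. The members and gene lists (other MMPs, plasminogen activators, MMP activators and inhibitors, ADAM proteases, AP-1 and ETS factors, and 6 marker lists) were chosen with earlier results of these data known. Alternatives were other background correction, scaling, floors, filters, thresholds, blocks and tests, and leaving out each array. Some called genes of these lists are not reported here.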

Additional observations from a re-analysis of the deposited data

Results flagged for a closer look

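In 7 of the 55 groups of 4 arrays (11 probes in 5 conditions), 1 array stood apart from the other 3 by more than Dixon's test allows, where chance gives about 1 in 20. For TIMP1, replicate 4 was the highest at D4, with a log2 value of 4.80, and at D30 - DMSO, with 5.63. For MMP14, replicate 4 was the highest at D30 - DMSO, with -0.19. For MMP19 probe A_24_P184445, replicate 4 was the lowest at D30 - DMSO, with 1.02, and for MMP9 it was the lowest at D34 +/- DMSO, with -2.46. These replicate 4 arrays lay on slide 4. TIMP2 had its lowest D4 array in replicate 1, with 5.76. MMP2 had its highest D30 + DMSO array in replicate 2, with -7.42, the other 3 being at the floor and none well above background.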

How the results depend on the processing

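The 11 probes were recomputed under every alternative, and 1426 of their pairwise changes kept direction and call, 17 lost and 2 gained a call, 54 that were not called took the other sign and 1 called change reversed, namely MMP2 for DMSO addition with normexp background correction (0.0554), a probe not well above background there. From D4 to D15, the 2 member calls became 1 with normexp, with only probes above background on all 20 arrays, without slide 4 and with the methods' t-test. For D30 + DMSO against D15 the 3 calls became 0 with the t-test, and against D30 - DMSO the 3 became 1 without slide 4. For DMSO removal the 1 call became 0 with normexp, with one probe per gene, without slide 4 and with the t-test. For D34 +/- DMSO against D30 - DMSO it became 2 with the slide as a block or an adjusted p below 0.05, and 0 with only the arrays compared or the t-test. The F-test's 2 calls (MMP2 and MMP24) became 1 with the filter on all 20 arrays, which leaves MMP2 out, and 1 by one-way analysis of variance, which did not call MMP2. Without slide 4 both were lost and 1 other probe, MMP19 probe A_24_P184445, was called, with the slide as a block 0 were, and with normexp MMP7 was called and MMP2 was not. The cause was not tested. Leaving out slide 4 was chosen after seeing the data.

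With the replicate block, which pairs same-numbered arrays, the calls were 2, 0, 3, 3, 1 and 1 for the 6 comparisons in the order D15 against D4, D30 - DMSO against D15, D30 + DMSO against D15, DMSO addition, DMSO removal and D34 +/- DMSO against D30 - DMSO, and the block changed no pairwise call of a member. The F-test had 2 with it, in which MMP2 was lost and MMP19 probe A_24_P184445 gained. For the ratios, the sign-flip test over 4 pairs cannot go below 0.125. Leaving out each array in turn gave 2 to 2, 0 to 0, 3 to 3, 3 to 3, 1 to 1 and 1 to 1 calls in the same order. The F-test had 1 to 3. The ratios had 0 to 0 for addition and removal alike, counts that the smallest possible p of the exact test limits too. Of the ratio changes, 541 kept their sign and 35 did not, and of the counts in the gene lists, 1794 stayed within 1.5 times and 186 did not. Signal over background limits MMP2 and TIMP3.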
